A study of Mus musculus with 20 samples.

Results

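Hepatokines are proteins that the liver secretes into the blood to act on other organs. The set described here held 9 genes of liver-made hormones and growth factors, chosen by their symbols (Fgf21, Gdf15, Thpo, Agt, Lect2, Enho, Rarres2, Hgf and Vegfa), of 37681 genes listed in each of 6 read count tables. All 9 were among the 15578 genes that passed the filter on low counts, which kept genes with at least 5 reads in at least 5 of the 10 libraries of any table. The data came from livers of 10 wild-type male C57/BL6 mice (C57/B6J in the growth protocol), 12 weeks old. They were injected intraperitoneally with 20 µg/kg of IL-1β (n = 5) or with saline (n = 5, the untreated group), and the livers were collected 4 h later. RNA of each liver was sequenced on an Illumina HiSeq and on an Ion Torrent Proton, and the reads of each platform were aligned with GSNAP, with STAR, and with STAR followed by Bowtie2. Animals are named by treatment and number as in the labels (UNT for saline, ILB for IL-1β). The same 10 animals stood in all 6 tables, so the tables are not independent repeats of the experiment. The question was how these hormone genes, their receptors and the enzymes that process them differed between the IL-1β treated and the untreated livers.

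IL-1β is a proinflammatory cytokine that starts the acute phase response of the liver. The members have different roles. FGF21 and GDF15 are stress hormones of energy balance, thrombopoietin (Thpo) drives platelet production, and angiotensinogen (Agt) is the precursor of the angiotensins that raise blood pressure. LECT2 is a secreted chemotactic protein, adropin (Enho) a small peptide of energy metabolism and chemerin (Rarres2) an adipokine and chemoattractant that is also made by liver. HGF is a mitogen of hepatocytes made mainly by the non-parenchymal cells, and VEGF-A is a growth factor of the endothelium.

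Total counts ran from 10568530 to 12008799 per library in the Illumina tables and from 12199528 to 16439683 in the Ion Torrent tables. The summed level of 5 hepatocyte markers, headed by Alb, was 85000 to 106000 CPM (counts scaled to a common library total) in untreated and 62100 to 74800 CPM in treated livers. In the Illumina STAR table, 4 of 5 markers of the exocrine pancreas (Prss2, Cpa1, Pnlip, Ctrb1) had no read. The other, Cela1, stood at 9.31 CPM in untreated and 6.34 CPM in treated livers (edgeR adjusted p = 0.021). Of 8 neutrophil markers, 4 passed the filter (S100a8, S100a9, Ngp, Csf3r), and these rose with IL-1β. Ngp was at 0 CPM in untreated livers, so its change could only be a rise and adds no support. Elane, which did not pass, had 4 reads over the untreated and 0 over the treated Illumina STAR libraries. The summed level of all 8 markers was 1.96 to 5.83 CPM in untreated and 42.6 to 92.2 CPM in treated livers. S100a8 and S100a9 made up most of it, with means of 19.9 and 36.5 CPM in treated livers. In whole liver, a change in the number of cells of a type and a change in RNA per cell cannot be told apart. The Illumina and Ion Torrent libraries of the saline mouse UNT_9584 were the least alike. Their deviations from the group mean correlated with r = 0.238 across 10841 genes, against 0.543 to 0.700 for the other 9 mice. Both libraries came from the same liver RNA, so this value compares libraries and not animals. The study reports a shifted Ion Torrent read-length distribution for this sample, and its part here was not tested. The fold changes of the members are therefore also given without UNT_9584. Levels and the values of single receptor, processing and regulator genes include it.

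To show the regulatory sequence that lies before these genes, the 250 bases upstream of the first listed start are printed below for the 6 members that passed the test in the Illumina STAR table, 5′ to 3′ on the strand of the gene. They come from RefSeq (GRCm38.p6), which held 11 starts of 7 members. All 6 lie on the minus strand, at chr7:45615491-45615740 (Fgf21), chr8:124569707-124569956 (Agt), chr17:46032378-46032627 (Vegfa), chr8:70632457-70632706 (Gdf15), chr16:20734512-20734761 (Thpo) and chr13:56548539-56548788 (Lect2). Capitals mark letters that match 1 of 6 motifs on either strand.
Fgf21: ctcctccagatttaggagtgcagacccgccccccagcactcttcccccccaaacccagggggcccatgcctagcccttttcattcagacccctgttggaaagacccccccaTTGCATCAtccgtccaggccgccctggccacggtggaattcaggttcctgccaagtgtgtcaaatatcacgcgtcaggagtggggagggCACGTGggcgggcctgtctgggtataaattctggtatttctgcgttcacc
Agt: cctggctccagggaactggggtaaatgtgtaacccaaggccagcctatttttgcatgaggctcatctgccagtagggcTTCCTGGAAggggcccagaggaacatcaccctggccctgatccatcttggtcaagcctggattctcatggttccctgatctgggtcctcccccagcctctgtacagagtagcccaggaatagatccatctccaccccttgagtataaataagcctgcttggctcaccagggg
Vegfa: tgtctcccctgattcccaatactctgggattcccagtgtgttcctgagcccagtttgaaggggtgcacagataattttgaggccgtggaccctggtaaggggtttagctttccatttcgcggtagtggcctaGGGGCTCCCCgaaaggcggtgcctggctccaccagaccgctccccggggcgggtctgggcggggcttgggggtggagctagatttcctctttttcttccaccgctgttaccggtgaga
Gdf15: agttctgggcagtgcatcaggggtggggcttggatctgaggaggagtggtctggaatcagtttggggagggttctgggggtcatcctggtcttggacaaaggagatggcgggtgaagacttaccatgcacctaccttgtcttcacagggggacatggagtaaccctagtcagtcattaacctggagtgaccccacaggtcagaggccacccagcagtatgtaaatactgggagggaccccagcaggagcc
Thpo: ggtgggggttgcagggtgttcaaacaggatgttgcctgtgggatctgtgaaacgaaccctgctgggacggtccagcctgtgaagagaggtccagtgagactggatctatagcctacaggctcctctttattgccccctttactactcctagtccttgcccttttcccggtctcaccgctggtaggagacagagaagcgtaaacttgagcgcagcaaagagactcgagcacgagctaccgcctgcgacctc
Lect2: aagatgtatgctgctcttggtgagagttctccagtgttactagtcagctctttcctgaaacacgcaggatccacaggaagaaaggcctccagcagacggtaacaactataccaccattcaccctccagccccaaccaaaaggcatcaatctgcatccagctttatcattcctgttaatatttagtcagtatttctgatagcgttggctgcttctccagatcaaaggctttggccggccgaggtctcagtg
The motifs searched were the κB consensus, the STAT motif TTCNNNGAA, the C/EBP motif TTGCNNAA, the C/EBP-ATF composite element TGATGNAA, the AP-1 motif TGANTCA and the hypoxia motif ACGTG. Of 32851 listed promoter windows of this length, 7.25% held the κB consensus, 7.02% the STAT, 9.56% the C/EBP, 3.45% the C/EBP-ATF, 6.75% the AP-1 and 16.6% the hypoxia motif. The Fgf21 window held the C/EBP-ATF letters at -139 to -132 and the hypoxia letters on both strands, overlapping, between -50 and -45. The Agt window held the STAT letters at -172 to -164, and the Vegfa window the κB letters at -118 to -109. The printed windows of Gdf15, Thpo and Lect2 held none of the 6 motifs. A further listed start of Gdf15 held the hypoxia letters on both strands between -83 and -78, and a further start of Vegfa (chr17:46025164-46025413) held them at -211 to -207. Each of these further windows lies downstream of the first listed start of its gene. These matches describe letters only, and binding was not measured.

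In the Illumina STAR table, 6 of the 9 hormone genes differed between the groups at an adjusted p below 0.05. Fgf21, Gdf15, Thpo and Agt rose with IL-1β, Lect2 and Vegfa fell, and Enho, Rarres2 and Hgf did not pass. The test was edgeR's quasi-likelihood test with Benjamini-Hochberg adjustment over all 15578 genes, and it called 45.7% of all genes tested, 22.7% higher and 22.9% lower. With a background of that size, nothing is read from the count alone. The median log2 fold change of the 9 members was 0.03, against 0 over all genes tested. TMM scaling sets the latter near 0, so nothing is read from the pair. Fold changes are on the log2 scale, treated over untreated, and levels are CPM scaled by TMM.

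Fgf21, the fasting and stress hormone (chr7:52869277-52870860, minus strand, NCBIM37), was close to the limit of detection in untreated livers. Illumina STAR levels were 0.666, 0.255, 0.0858, 0.0889 and 0.650 CPM in UNT_9574, UNT_9575, UNT_9576, UNT_9580 and UNT_9584. They were 1.33, 1.28, 0.596, 1.88 and 1.71 CPM in ILB_9577, ILB_9578, ILB_9579, ILB_9582 and ILB_9583. ILB_9579 lay within the untreated range, and the other 4 treated livers lay above all 5 untreated ones. The group means were 0.349 ± 0.290 and 1.36 ± 0.497 CPM (SD, n = 5), a log2 fold change of 1.93 ± 0.48 (SE; edgeR adjusted p = 0.00342), or 3.81-fold. These levels rested on 1 to 8 reads per untreated and 6 to 19 reads per treated library, so counting error adds to the spread of these values. The exact rank-sum test on scaled counts did not call it (adjusted p = 0.0698). Without UNT_9584 the log2 fold change was 2.24 (edgeR adjusted p = 0.00276). Ion Torrent STAR held 10 to 21 reads per untreated and 16 to 44 reads per treated library, and there the log2 fold change was 1.48 ± 0.33 (edgeR adjusted p = 0.00156). ILB_9579 was the lowest treated liver in both STAR tables.

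Gdf15, the stress hormone whose receptor GFRAL lies in the hindbrain (chr8:73153292-73156355, minus strand), had the largest log2 fold change of the members in all 6 tables. It was at 1.17, 0.851, 0.429, 0.533 and 0.558 CPM in UNT_9574, UNT_9575, UNT_9576, UNT_9580 and UNT_9584. The treated livers held 2.56, 1.87, 5.96, 5.36 and 2.82 CPM in ILB_9577, ILB_9578, ILB_9579, ILB_9582 and ILB_9583. All 5 treated livers lay above all 5 untreated ones, and ILB_9579 and ILB_9582 held more than the other 3 treated livers. Groups that did not overlap were found for 3 of the 9 members (Gdf15, Thpo, Lect2), against 33.9% of all genes tested. The means were 0.707 ± 0.300 and 3.71 ± 1.82 CPM (SD, n = 5), with a log2 fold change of 2.36 ± 0.38 (SE; edgeR adjusted p = 0.000106), or 5.14-fold. Without UNT_9584 it was 2.29 (edgeR adjusted p = 0.000477). Across the 6 tables the log2 fold change ran from 2.19 to 2.36, and the groups did not overlap in any of them. The order of the treated livers was not that of Fgf21: ILB_9579 held the least Fgf21 and the most Gdf15.

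**Figure D1:**
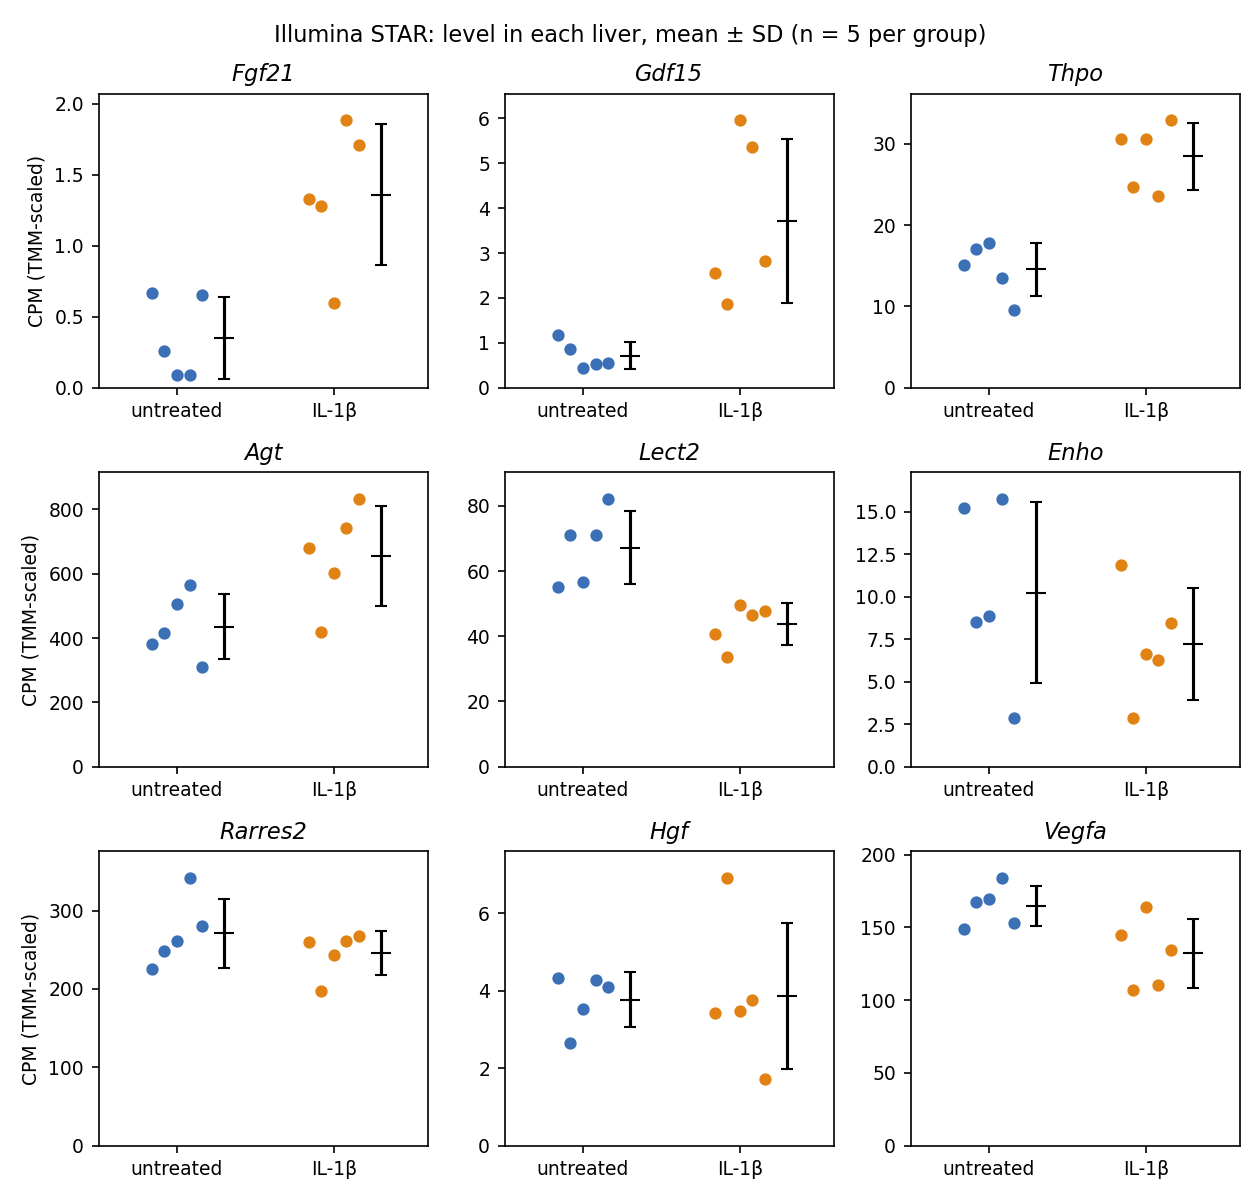
Level of each hormone gene in the 10 livers of the Illumina STAR table, in TMM-scaled CPM on a linear axis from 0, with blue points for untreated and orange points for IL-1β treated livers and the mean ± SD beside them. The groups separate for Gdf15, Thpo and Lect2, and overlap for the other 6 genes.

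Thpo, the hormone of megakaryocytes and platelets (chr16:20725231-20734584, minus strand), rose 1.95-fold. UNT_9574, UNT_9575, UNT_9576, UNT_9580 and UNT_9584 held 15.1, 17.0, 17.8, 13.5 and 9.57 CPM. ILB_9577, ILB_9578, ILB_9579, ILB_9582 and ILB_9583 held 30.6, 24.6, 30.6, 23.6 and 32.9 CPM. The lowest treated liver lay above the highest untreated liver, and UNT_9584 was the lowest of all. The means were 14.6 ± 3.26 and 28.5 ± 4.10 CPM (SD, n = 5), a log2 fold change of 0.96 ± 0.16 (SE; edgeR adjusted p = 0.000144). Without UNT_9584 it was 0.85 (edgeR adjusted p = 0.000138). The Ion Torrent tables gave 0.78 to 0.79, and the groups stayed apart in all 6 tables. Thpo shares 154 of its 1837 exonic bases with Chrd on the opposite strand, which held 54 to 124 reads per Illumina STAR library where Thpo held 103 to 327. The libraries were made with strand-specific kits, but whether strand was used in counting is not given in the sources used here.

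Agt, the precursor of angiotensin (chr8:127080434-127093606, minus strand), was the second most abundant of the members per length and rose by a smaller factor. The untreated levels were 382, 416, 505, 564 and 309 CPM in UNT_9574, UNT_9575, UNT_9576, UNT_9580 and UNT_9584. The treated levels were 680.5, 419.5, 601, 743 and 832 CPM in ILB_9577, ILB_9578, ILB_9579, ILB_9582 and ILB_9583. ILB_9578 lay inside the untreated range, and the other 4 treated livers lay above it. The means were 435 ± 101 and 655 ± 157 CPM (SD, n = 5), a log2 fold change of 0.59 ± 0.18 (SE; edgeR adjusted p = 0.0154), or 1.51-fold. Without UNT_9584, which held the least Agt on Illumina, the log2 fold change was 0.49 (edgeR adjusted p = 0.0368). Agt was not called in the 3 Ion Torrent tables, where the log2 fold change was 0.37 to 0.39 (edgeR adjusted p = 0.0504 to 0.0647), nor with library totals in place of TMM (0.46, edgeR adjusted p = 0.0536).

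Lect2, the chemotactic hepatokine (chr13:56643821-56649899, minus strand), fell. Untreated livers held 55.0, 71.0, 56.7, 71.0 and 82.1 CPM in UNT_9574, UNT_9575, UNT_9576, UNT_9580 and UNT_9584. Treated livers held 40.7, 33.7, 49.5, 46.6 and 47.7 CPM in ILB_9577, ILB_9578, ILB_9579, ILB_9582 and ILB_9583. Every treated liver lay below every untreated liver, with ILB_9578 the lowest. The means were 67.2 ± 11.3 and 43.6 ± 6.45 CPM (SD, n = 5), a log2 fold change of -0.62 ± 0.13 (SE; edgeR adjusted p = 0.00131), so that untreated livers held 1.54-fold more. Without UNT_9584 it was -0.54 (edgeR adjusted p = 0.00331). The Ion Torrent tables gave -0.46 to -0.44 and also called it, but ILB_9579 lay inside the untreated range in each of them. The hepatocyte markers named above were lower in treated livers as well, 2 of 5 at adjusted p below 0.05 (Alb at -0.53 and Cps1 at -0.89 log2), and their part in the lower Lect2 level was not tested.

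Enho, the adropin gene (chr4:41585177-41587357, minus strand, annotated as a processed transcript), varied more within groups than between them on Illumina. UNT_9574, UNT_9575, UNT_9576, UNT_9580 and UNT_9584 held 15.2, 8.51, 8.84, 15.7 and 2.88 CPM. ILB_9577, ILB_9578, ILB_9579, ILB_9582 and ILB_9583 held 11.9, 2.86, 6.65, 6.25 and 8.46 CPM. The groups overlapped, and the lowest untreated liver, UNT_9584, was nearly equal to the lowest treated liver, ILB_9578. The log2 fold change was -0.51 ± 0.38 (SE; edgeR adjusted p = 0.313), with a 95% interval (t, 8 degrees of freedom) of -1.39 to 0.38. In the Ion Torrent STAR table UNT_9584 held 7.77 CPM, and the log2 fold change was -0.56 ± 0.25 (edgeR adjusted p = 0.0773). Leaving UNT_9584 out gave -0.74 on Illumina (edgeR adjusted p = 0.0683) and -0.67 on Ion Torrent (edgeR adjusted p = 0.041). Whether Enho passed on Ion Torrent thus depended on the UNT_9584 library.

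Rarres2, the chemerin gene (chr6:48519697-48522669, minus strand), had the highest level per length in untreated livers. It was at 225, 248, 261, 341 and 280 CPM in UNT_9574, UNT_9575, UNT_9576, UNT_9580 and UNT_9584, and at 259.8, 198, 243, 261 and 268 CPM in ILB_9577, ILB_9578, ILB_9579, ILB_9582 and ILB_9583. Of the treated livers only ILB_9578 lay outside the untreated range. The log2 fold change was -0.14 ± 0.12 (SE; edgeR adjusted p = 0.379), with a 95% interval of -0.42 to 0.14, and without UNT_9584 it was -0.13 (edgeR adjusted p = 0.454). Rarres2 shares 323 of its 708 exonic bases with Lrrc61 on the other strand, which held 17 to 59 reads per Illumina STAR library where Rarres2 held 2005 to 3838.

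Hgf, the hepatocyte mitogen (chr5:16059368-16125257, plus strand), did not differ beyond its spread. Untreated livers held 4.33, 2.64, 3.52, 4.27 and 4.09 CPM in UNT_9574, UNT_9575, UNT_9576, UNT_9580 and UNT_9584. Treated livers held 3.41, 6.90, 3.48, 3.77 and 1.71 CPM in ILB_9577, ILB_9578, ILB_9579, ILB_9582 and ILB_9583. The treated group held both the highest liver, ILB_9578, and the lowest, ILB_9583. The log2 fold change was 0.03 ± 0.28 (SE; edgeR adjusted p = 0.967), with a 95% interval of -0.62 to 0.69, and without UNT_9584 it was 0.06 (edgeR adjusted p = 0.917). Of 7 hepatic stellate cell markers, 3 fell (Lrat, Reln and Hand2), none was at 0, and their summed level was 110 to 150 CPM in untreated and 77.1 to 111 CPM in treated livers. Their part in the Hgf value was not tested.

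Vegfa, the endothelial growth factor (chr17:46153942-46169326, minus strand), fell by the smallest amount among the members called. UNT_9574, UNT_9575, UNT_9576, UNT_9580 and UNT_9584 held 149, 167, 169.7, 184 and 153 CPM. ILB_9577, ILB_9578, ILB_9579, ILB_9582 and ILB_9583 held 145, 107, 164, 110.4 and 135 CPM. ILB_9579 lay within the untreated range and the other 4 below it. The means were 165 ± 13.9 and 132 ± 23.9 CPM (SD, n = 5), a log2 fold change of -0.32 ± 0.12 (SE; edgeR adjusted p = 0.0423). Without UNT_9584 it was -0.34 (edgeR adjusted p = 0.0396). The call was lost when UNT_9575, UNT_9576 or UNT_9580 or ILB_9578, ILB_9582 or ILB_9583 was left out (edgeR adjusted p = 0.0666 to 0.103). All 6 tables called Vegfa with the same sign, from -0.40 to -0.32, but Ion Torrent STAR did not without UNT_9584 (-0.31, edgeR adjusted p = 0.0886).

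The 3 Illumina tables called the same number of members, 6 of 9, beside 45.7%, 47.5% and 47.4% of all genes with STAR, GSNAP and STAR + Bowtie2. The 3 Ion Torrent tables called 5 of 9, beside 42.1%, 46.4% and 46.7%. Fgf21, Gdf15, Thpo, Lect2 and Vegfa were called in all 6 tables with 1 sign each, as were 34.9% of all genes. Enho, Rarres2 and Hgf were called in none. On the Illumina STAR table, limma-voom and DESeq2 called the same number, 6 (46.2% and 45.8% of all genes), library totals 5 (45.5%), the exact rank-sum test 5 on unscaled and 3 on scaled counts (39.1% and 39.7%), and the edgeR test with an absolute log2 fold change above 1 called 2 (16.9%). Hgf alone among the members changed sign between tables, from -0.06 with Illumina STAR + Bowtie2 to 0.26 with Ion Torrent STAR + Bowtie2.

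**Figure D2:**
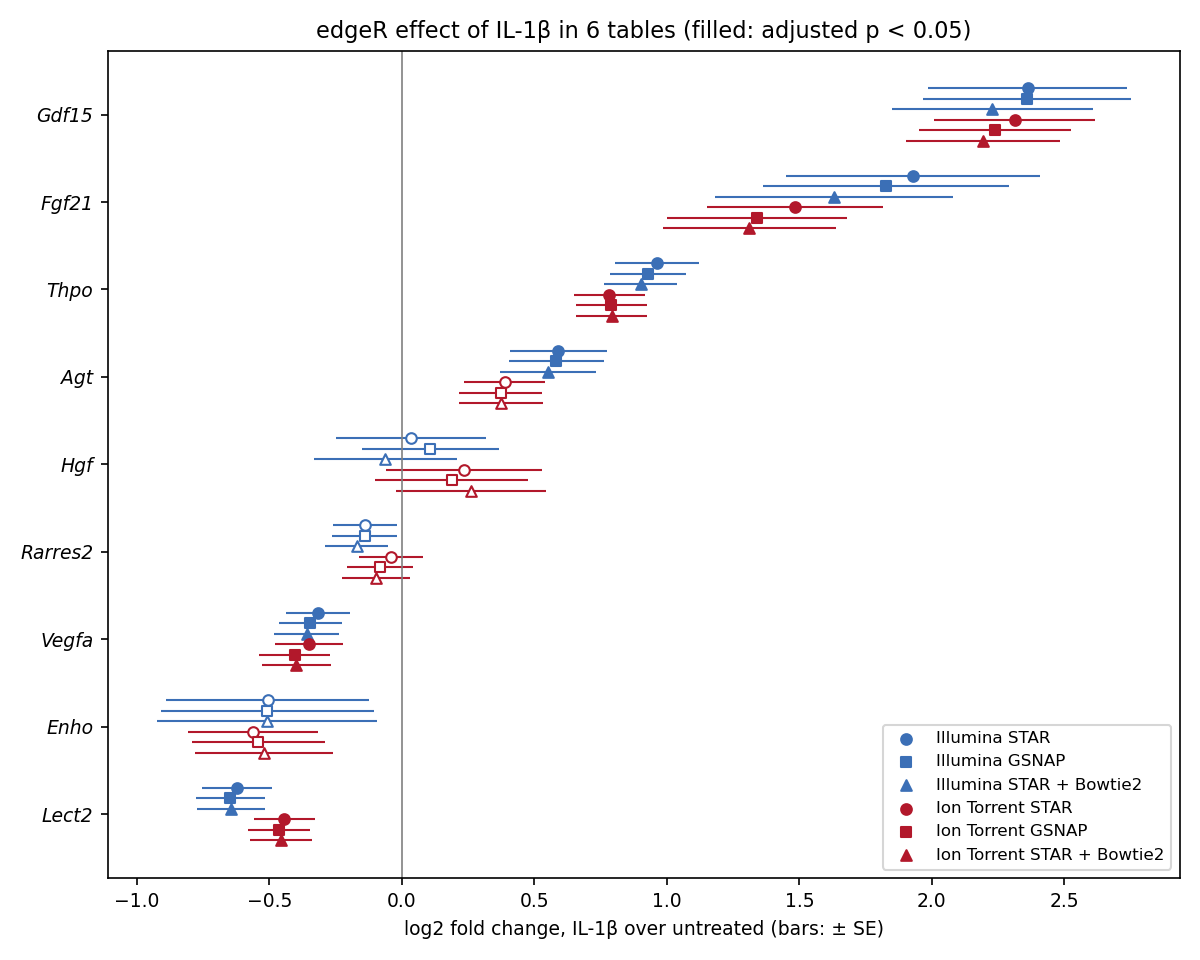
Log2 fold change of each hormone gene with its SE in the 6 tables, with filled symbols for an edgeR adjusted p below 0.05, blue for Illumina and red for Ion Torrent, and a symbol shape per aligner. Gdf15 runs from 2.19 to 2.36 and Fgf21 from 1.31 to 1.93, and Agt is filled in the Illumina tables only.

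The size of the IL-1β effect was compared between platforms in a fit over all 20 STAR libraries with the mouse as a block. None of the 9 members was called (edgeR adjusted p of at least 0.696), beside 0.00642% of all genes, and none with GSNAP (0.0642%) or STAR + Bowtie2 (0.077%), nor with STAR when UNT_9584 was left out. At an unadjusted p below 0.05 there were 2 of 9, Agt (difference -0.21 ± 0.10, Ion Torrent minus Illumina, log2, SE) and Lect2 (0.19 ± 0.09). DESeq2 called 0 of 9, with 0 at an unadjusted p below 0.05. The loss of the Agt call on Ion Torrent is thus not shown to be a difference between the platforms. The largest difference was that of Fgf21, -0.45 ± 0.44.

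The levels themselves did not run at 1 ratio between the platforms. The tables were re-sampled separately, so the ratios of CPM are given as a description. Gdf15 had 2.05 to 7.88 times as many CPM in the Ion Torrent as in the Illumina STAR library of the same liver, with a median of 3.78 and the highest ratio in UNT_9584, and Fgf21 had a median of 2.41. Agt (median 1.78), Rarres2 (1.54), Lect2 (1.33), Vegfa (1.32) and Thpo (1.28) were above 1 in all 10 livers. Enho was close to equal at 1.07, and Hgf, the longest of these genes in genomic span, was below 1 in 9 of 10 livers with a median of 0.729. UNT_9584 had the highest ratio of the 10 livers for Gdf15, Thpo, Agt, Enho and Vegfa and the lowest for Lect2 and Hgf.

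**Figure D3:**
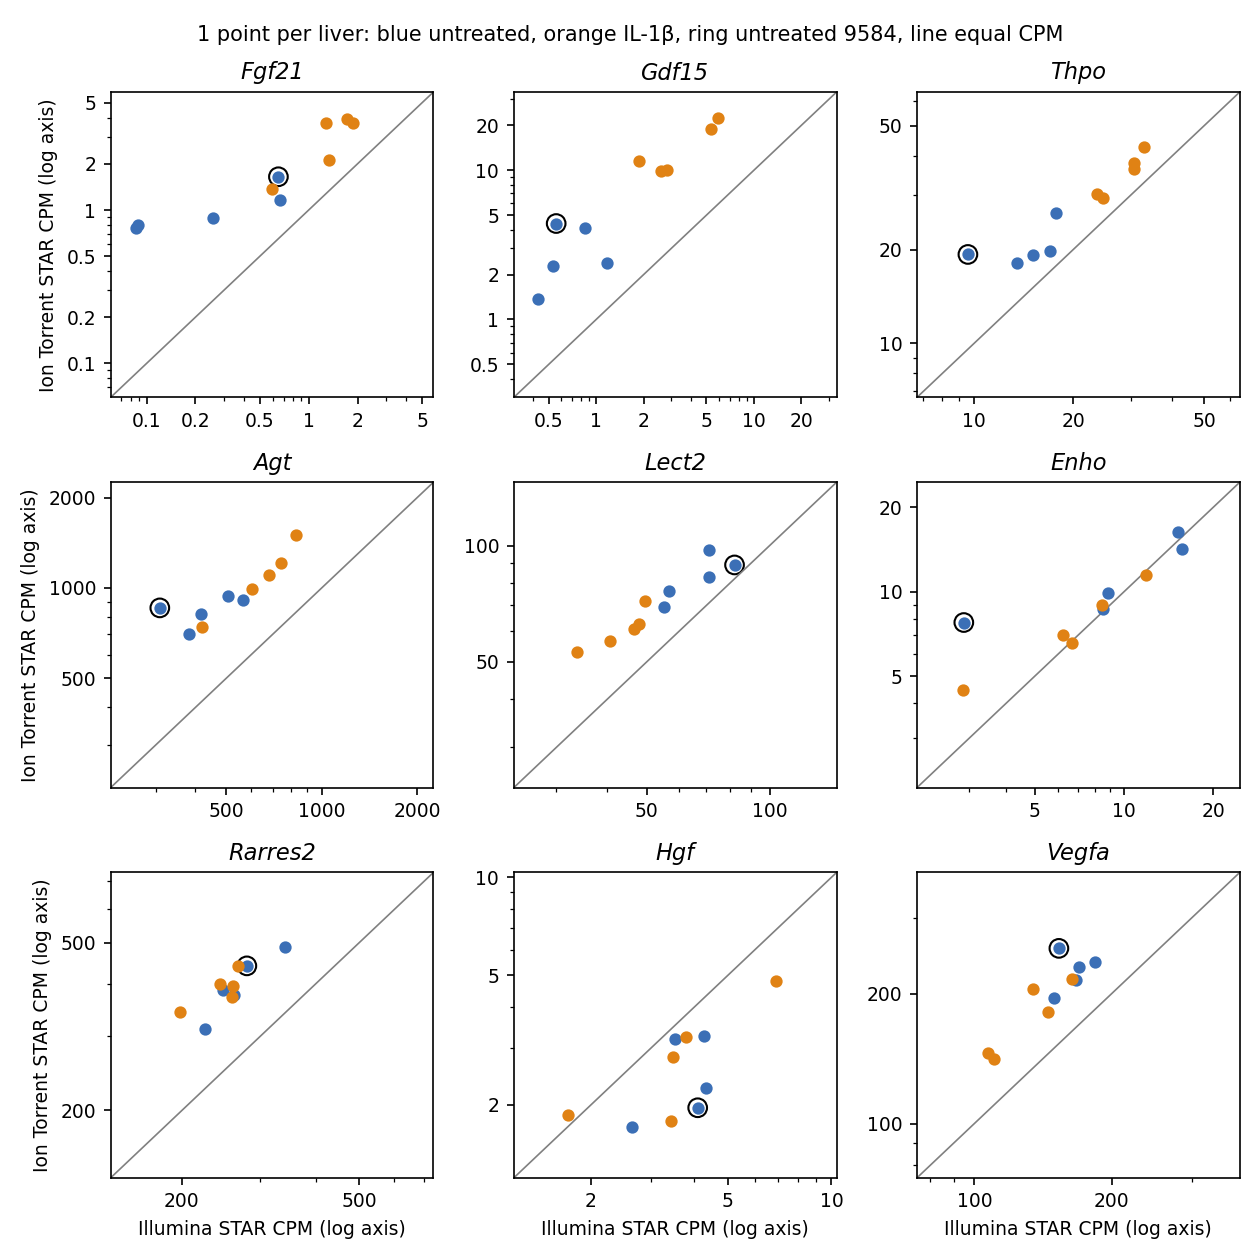
CPM of each hormone gene in the Illumina STAR (x axis) and Ion Torrent STAR (y axis) library of the same liver, both on log axes, with blue for untreated, orange for IL-1β treated, a ring around UNT_9584 and a line of equal CPM. Gdf15 and Fgf21 lie farthest above the line, most Hgf points lie below it, and the ringed liver stands off the others for Thpo, Agt and Enho.

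Per kilobase of exon, the members differed widely in level. Rarres2 led with 383 ± 62.1 CPM per kb (SD, n = 5) and Agt followed with 230 ± 53.3, higher than 99.2% and 98.6% of all genes tested. Lect2 with 70.0 ± 11.7 and Vegfa with 38.4 ± 3.23 came next, each apart from its neighbours in every liver. Enho (8.07 ± 4.21) and Thpo (7.94 ± 1.78) could not be ordered, because their ranges overlapped. Hgf stood at 1.37 ± 0.257 CPM per kb. Gdf15 (0.382 ± 0.162) and Fgf21 (0.376 ± 0.312) were lowest, overlapped and exceeded 23.5% and 23.3% of genes. In treated livers Agt reached 346 ± 82.8 CPM per kb beside 347 ± 40.2 for Rarres2, and Gdf15 (2.01 ± 0.983) and Fgf21 (1.46 ± 0.535) stood beside Hgf (1.4 ± 0.684). Gdf15 and Fgf21, with the largest fold changes, thus had the lowest untreated levels.

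**Figure D4:**
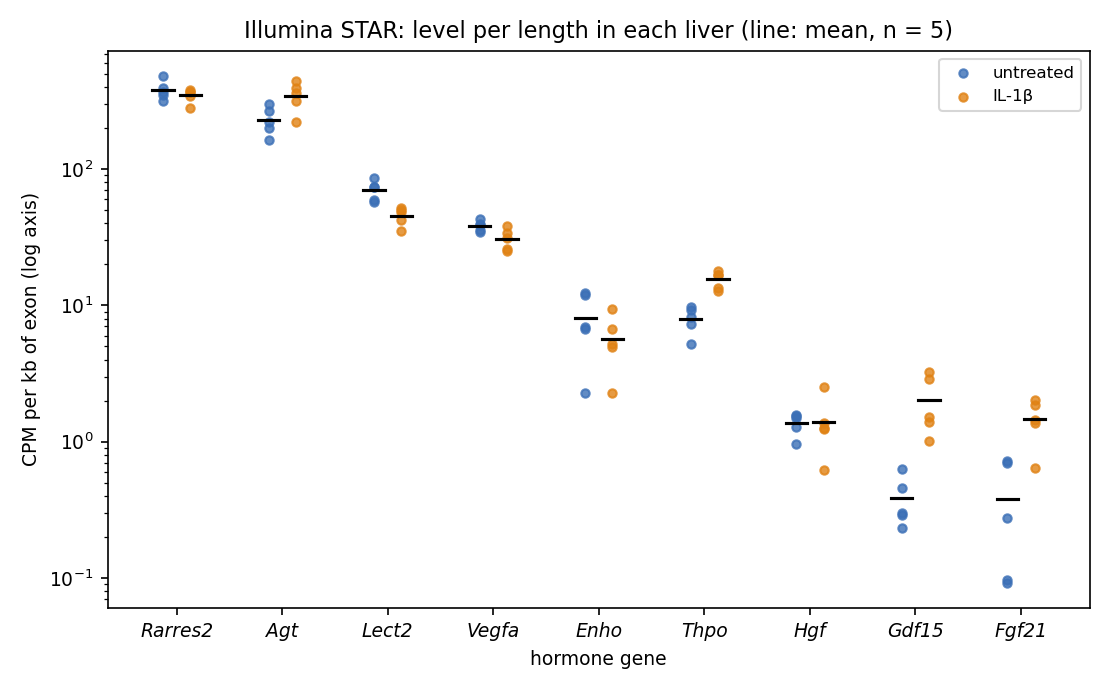
Level of the 9 hormone genes per kilobase of exon in each liver of the Illumina STAR table on a log axis, blue for untreated and orange for IL-1β treated, with a line at the mean of 5 livers. Rarres2 and Agt lie above 150 CPM per kb in every liver, and untreated Gdf15 and Fgf21 lie below 1.

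Among the receptors of these hormones, Klb, Fgfr3, Agtr1a, Gpr19, Met and Kdr fell and Cmklr1 and Ccrl2 rose. Of 22 listed receptors, 14 passed the filter, and 8 of the 14 were called (57.1%, beside 45.7% of all genes), 2 higher and 6 lower, with a median log2 fold change of -0.18. The receptor list and the lists below were chosen with earlier results of these data known, so nothing is read from their shares. For FGF21, the obligate co-receptor Klb fell from 36.3 ± 7.73 to 3.78 ± 0.851 CPM (SD, n = 5), a log2 fold change of -3.26 ± 0.18 (SE; edgeR adjusted p = 4.28e-09). Untreated livers held 9.58-fold more Klb, and the groups did not overlap. Fgfr3 fell too (-1.28 ± 0.23), while Fgfr1 (0.00), Fgfr2 (-0.23) and Fgfr4 (-0.13), the main FGF receptor of hepatocytes, did not pass in this table, although Fgfr4 was called lower in 3 of the 6. Fgf21 and Klb thus moved in opposite directions in the same livers.

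Agtr1a, the angiotensin II receptor of liver, fell from 50.8 ± 6.26 to 17.8 ± 3.11 CPM (log2 -1.51 ± 0.13, edgeR adjusted p = 3.28e-07), again opposite to its ligand precursor Agt. Gpr19, a proposed adropin receptor, fell (-1.19 ± 0.25), as did Met, the receptor of HGF (-0.83 ± 0.13), and Kdr, the main signalling receptor of VEGF-A (-1.68 ± 0.21). Flt1 (-0.06), Nrp1 (0.25) and Nrp2 (0.56), the other VEGF-A receptors, did not pass in this table, although Nrp2 was called higher in 3 of the 6. Of 7 endothelial markers, 2 rose (Cdh5, Lyve1) and 1 fell (Clec4g), none was at 0, and their summed level was 114 to 188 CPM in untreated and 136 to 212 CPM in treated livers, ranges that overlapped. Their part in the Kdr value was not tested. Both higher receptors bind chemerin. Ccrl2, which presents chemerin without signalling, rose (1.35 ± 0.23) and Cmklr1, its signalling receptor, rose in this table (0.60 ± 0.22, edgeR adjusted p = 0.0341) but was called in only 3 of the 6. Both are also known from leukocytes. The neutrophil markers that passed the filter rose as given above. Of 7 Kupffer cell and macrophage markers, 3 fell and 1 rose, none was at 0, and their summed level was 131 to 225 CPM in untreated and 70.2 to 165 CPM in treated livers. Of 7 lymphocyte markers, 5 passed the filter and 1 fell, none was at 0, and their summed level was 1.96 to 4.75 CPM in untreated and 1.11 to 2.56 CPM in treated livers. The part of these cells in the result was not tested. Gfral, Ret, Agtr1b, Agtr2, Mas1, Cd209a and Gpr1 did not pass the filter, so the receptors of GDF15 could not be followed here.

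**Figure D5:**
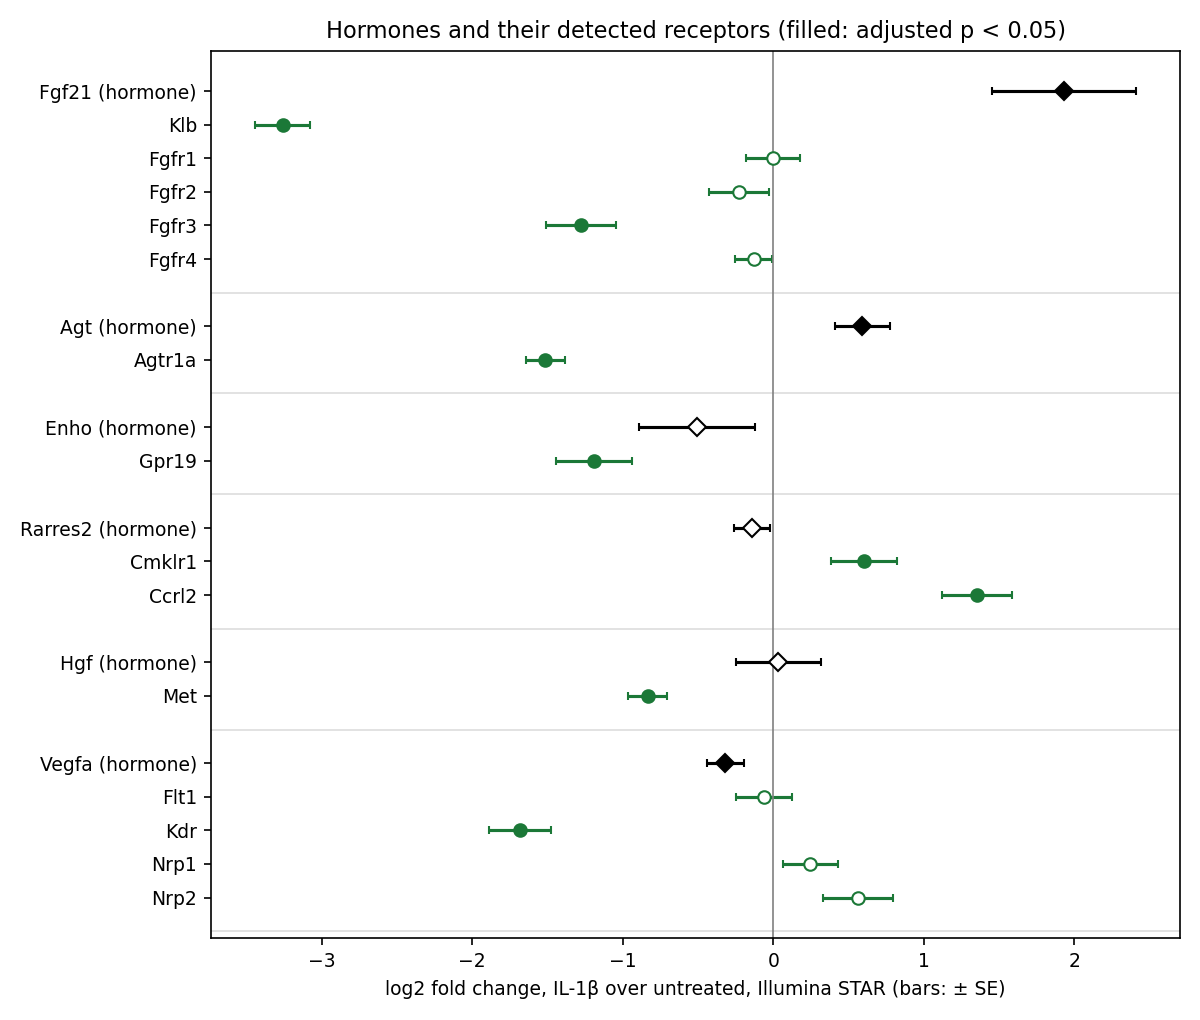
Log2 fold change with its SE in the Illumina STAR table for each hormone gene with a detected receptor (black diamonds) and its receptors (green circles), filled where the edgeR adjusted p was below 0.05. Klb and Agtr1a lie to the left of 0 while Fgf21 and Agt lie to the right, and Ccrl2 and Cmklr1 are the only filled receptors to the right.

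Of 17 genes that process, clear or carry the signal of these hormones, 14 passed the filter and 8 were called (57.1%, beside 45.7% of all genes), 5 higher and 3 lower. In the angiotensin pathway Ace, which forms angiotensin II, rose from 0.753 ± 0.258 to 2.82 ± 0.650 CPM (log2 1.89 ± 0.27, edgeR adjusted p = 4.42e-05), and Enpep, an aminopeptidase that degrades angiotensin II, fell (-0.67 ± 0.16). Ren1 did not pass the filter. Among the proteases that activate HGF and their inhibitors, the inhibitor Spint2 rose (0.71 ± 0.10). The activating protease St14 (1.34 ± 0.38) and the inhibitor Spint1 (0.78 ± 0.30) rose from levels under 1 CPM. Spint1 was called in 2 tables only and ran from -0.37 to 1.13 over the 6. The other activating proteases listed, Hgfac (-0.37), Hpn (-0.03) and Plau (0.30), did not pass in this table. Hgfac was called lower in 3 of the 6, at -0.61 to -0.37 over the tables. For chemerin, carboxypeptidase B2 (Cpb2), which trims its active end, rose (0.79 ± 0.10), and Cpn1 (0.19) did not pass. Asgr1 (-0.39 ± 0.09) and Asgr2 (-0.50 ± 0.11), subunits of the asialoglycoprotein receptor that takes up aged platelets and is linked to Thpo expression, fell in all 6 tables, and Jak2, which transmits that signal, did not pass in this table (0.31, edgeR adjusted p = 0.0824) but was called higher in 4 of the 6. Fap and Elane did not pass the filter.

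Of 19 transcription factors listed as regulators of these genes, 14 were called in the Illumina STAR table (73.7%, beside 45.7% of all genes), 9 higher and 5 lower. This list was chosen with earlier results of these data known, so nothing is read from its shares. The same 14 were called with 1 sign each in all 6 tables, as were 34.9% of all genes. Among those with the largest change were Ddit3 (2.84 ± 0.18), Stat3 (1.81 ± 0.13), Cebpb (1.37 ± 0.19), Atf3 (1.36 ± 0.27) and Atf4 (1.24 ± 0.09), on the log2 scale with SE. Ddit3, Atf3 and Atf4 belong to the integrated stress response, and Stat3 and Cebpb to the acute phase response. Of 25 other liver-made hormones tested, 14 were called (56.0%, beside 45.7% of all genes), 4 higher and 10 lower, with a median of -0.34. The largest changes called in all 6 tables were those of the activin subunit Inhba (-3.93 ± 0.65), the IGF-binding protein Igfbp1 (2.39 ± 0.51), the hepatokine Fgl1 (1.73 ± 0.16), the iron hormone hepcidin (Hamp, 1.21 ± 0.20), Angptl6 (-1.15 ± 0.26) and the BMP ligand Gdf2 (-1.10 ± 0.23). Over the 4 lists, 44 of 72 genes tested were called (61.1%, beside 45.7% of all genes), 20 higher and 24 lower, and without UNT_9584 42 were called, 19 higher and 23 lower.

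For the 6 members with a mean of at least 50 reads, the genes most alike over the 10 livers were found after the group means were removed, from 7809 or 7810 genes, by Pearson's r of log2 CPM. These are the highest of many values and share library and depth. They include UNT_9584, whose libraries were the least alike between platforms, and r was not taken without it. Agt went with Tmbim6 (r = 0.987 on Illumina, 0.908 on Ion Torrent) and Ddt (0.974 and 0.776). Rarres2 went with Cmtm8 (0.962 and 0.893) and Aldh1l1 (0.948 and 0.819), and Lect2 with Rdh7 (0.962 and 0.727) and Cyp2a12 (0.946 and 0.872). Vegfa went with Map2k7 (0.940 and 0.719) and Tcof1 (0.934 and 0.847), and Thpo with Cxxc1 (0.979 and 0.684) and Ap1b1 (0.956 and 0.843). Enho went with Notum (0.960 and 0.523) and Tcf25 (0.954 and 0.361), whose likeness was much lower on Ion Torrent.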

How the data were processed

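Whole-number read counts per gene were deposited in 6 tables, 1 per platform and aligner, each with 10 libraries. Per the study's methods and processing notes, the authors aligned reads to mm9 with STAR 2.5.1b, GSNAP or STAR followed by Bowtie2 2.2.9. The authors then removed ribosomal and mitochondrial reads and re-sampled the counts of each table to a common number of gene-mapping reads with PORT, so totals no longer show the original depth. Whether counting used strand is not given in the sources used here. Gene positions are those of GENCODE vM1 on NCBIM37. The spans in the files extend these by 250 (Illumina) or 246 (Ion Torrent) bases at each end.

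The filter on low counts kept genes that reached 5 reads in no fewer than 5 libraries of 1 or more tables. They were tested with edgeR 4.0.16 (R 4.3.3; TMM, quasi-likelihood test, Benjamini-Hochberg over 15578 genes, call at adjusted p below 0.05), each table by itself, IL-1β against untreated. CPM used the counts of tested genes and TMM factors of 0.92 to 1.1. SE is the fitted coefficient over the root of its F statistic, and levels per kilobase used the union of exons. Platform effects were compared with the mouse as a block, since the labels give each animal's number on both platforms. Deviations from group means correlated between the 2 libraries of a mouse with r = 0.238 to 0.700.

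Alternatives were DESeq2 1.42.0, limma 3.58.1 (voom), size factors of DESeq2, library totals, the exact rank-sum test of the study's methods, other filters, a fold threshold and leaving out each mouse. Scripts were tested on simulated data. Intervals are for the mean log2 fold change between these livers, the coefficient ± t times its SE with 8 degrees of freedom. The edgeR p-values rest on edgeR's own degrees of freedom, so an interval and its p-value can differ near a threshold. The members, gene lists and motifs were chosen with earlier results of these data known. Named were all members, every detected receptor and processing gene, of the regulators and other hormones the 6 with the largest change called in all 6 tables, and, for members with a mean of at least 50 reads, the 2 genes most alike in pattern. A few listed genes that this rule would name are not reported here.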

Additional observations from a re-analysis of the deposited data

Results flagged for a closer look

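Thpo in the Ion Torrent STAR table had 1 untreated liver apart from the others. UNT_9576 held 26.2 CPM and the other 4 untreated livers 18.1 to 19.7 CPM, so that its gap to the nearest was 0.802 of the group's range, above the limit of 0.71 for 5 samples. This check was made in 36 groups, and chance marks about 1 group in 20. UNT_9576 was also the highest untreated liver for Thpo on Illumina, at 17.8 CPM.

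Among the other liver hormones, the effect of IL-1β on hepcidin 2 (Hamp2) differed between platforms in the GSNAP tables. The difference was 1.06 ± 0.156 (Ion Torrent minus Illumina, log2, SE, edgeR adjusted p = 0.0015 with the mouse as a block). It was not called with STAR or STAR + Bowtie2. Over the 6 tables the log2 fold change of Hamp2 ran from -0.95 to 0.60, and 2 tables, Illumina STAR among them, called it lower. Hamp2 is a close paralog of Hamp, and how the counting divided reads between them is not given in the sources used here.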

How the results depend on the processing

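The number of hormone genes called in the Illumina STAR table, 6 of 9, was 5 or 6 under every alternative but a pair. The exact rank-sum test on scaled counts called 3, without Fgf21, Agt and Vegfa, and requiring an absolute log2 fold change above 1 left 2, Fgf21 and Gdf15. The same threshold left 23 of the 44 receptor, processing, regulator and other hormone genes called, and the other alternatives gave 36 to 45. Leaving out 1 mouse gave 5 or 6 members and 38 to 42 of those genes. Gdf15, Thpo and Lect2 kept their call in all 19 alternatives except the fold threshold, which Thpo and Lect2 did not meet. The exact rank-sum test on unscaled counts, the kind of test named in the study's methods, called 5 members, 2 higher and 3 lower: it called Rarres2 lower (adjusted p = 0.0406) and did not call Fgf21 (adjusted p = 0.0705) or Agt (adjusted p = 0.251). Library totals in place of TMM moved the median change of genes averaging 10 reads or more to -0.12 on the log2 scale, and split the calls over all genes into 2746 higher and 4335 lower, against 3541 and 3575. No member changed sign but Hgf, which was not called. With the longest transcript in place of the exon union, Vegfa stood at 46.7 CPM per kb. Without the replicate block, the difference between platforms was called for 0 of 9 members, as with it. Depth limits Fgf21 and Gdf15 most, whose Illumina levels rest on 1 to 60 reads per library. With 5 livers per group, the 95% intervals of Enho, Rarres2 and Hgf set what could be seen.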
